A study of Sus scrofa with 75 samples.

Results

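Small RNA of peripheral blood mononuclear cells (PBMC) from 8 control pigs was compared between day 20 of life, the day of weaning, and day 11. In these pigs miR-19b, the leading miRNA of the miR-17-92 cluster in the control of lymphocyte growth and survival, rose 2.49-fold from day 11 to day 20 (log2 change 1.32, SE 0.26, n = 8 pairs). In edgeR's test it was the only one of 209 miRNAs with an adjusted p-value under 0.10, and its scaled count was higher at day 20 in all 8 pigs. As a share of total counts miR-19b was lower at day 20 in pig 4. Its cluster partner miR-19a, erythroid miR-451, let-7d-5p, miR-21-5p, miR-101 and miR-30e-5p had positive log2 changes between 0.75 and 1.16 that did not pass the adjustment in edgeR. Lymphocyte miR-150 and miR-342 had negative log2 changes that did not pass it either and that were positive when libraries were scaled by total counts. Among the 10 most abundant miRNAs, the log2 changes were between -0.91 for miR-486, which is also erythroid, and 0.48 for miR-148a-3p, and none passed in edgeR.

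The comparison used 16 of the 39 small RNA libraries, chosen by column name as control pigs 1 to 8 at day 11 and the same 8 pigs at day 20, out of 75 samples in the series. The study followed piglets that were given fresh topsoil each day from day 4 to day 20, or that grew up in ordinary farrowing crates without it. The control pigs used here are the latter, so that day 11 fell within lactation and day 20 at its end. Blood was also taken at day 56, and mRNA libraries of the study were not used. The animals were those of median weight in their litters, litters differed in size, and the cells were the mononuclear fraction of a density gradient, so that any change may reflect the mix of cells in that fraction. A lower number of cells of a type and less of a miRNA per cell cannot be told apart in such samples.

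The labels disagree with each other. In these 16 libraries, the characteristics listed for a sample match the treatment in the column name in 8, the age in 9, and treatment and age together in 3. Treatment, age and pig number were taken from the column names throughout. No 2 of the 16 libraries held identical counts.

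The authors deposited counts of reads per mature miRNA, without normalization. The total over every entry of the table was between 8227666 and 13658482 counts per library, and between 6980351 and 13342903 with 1 entry per mature name. Most of this was miR-486, an erythroid miRNA encoded within ANK1, which left between 389906 and 3522677 counts for the rest, with a median of 1294443. Between 141 and 253 miRNAs had a read in a library. The scaled count used below is the count of a library after its 75% quantile was brought to the geometric mean of the 16 libraries. The sources used here mention no molecular identifiers, so that counting error may understate the error of low counts.

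The markers of blood mononuclear cells were present in every library. Lymphocyte miR-150, which is known to restrain MYB in mature B and T cells, had between 4025 and 45992 counts, and miR-342 had between 800 and 4436. Hematopoietic miR-142-5p had between 900 and 30834 counts and myeloid miR-223 between 65 and 889. Markers of red cells were present as well, since miR-486, miR-451 and miR-144 had a read in all 16 libraries. Platelet and endothelial miR-126-3p was near the limit of detection, with at most 26 counts and no count in 6 libraries, while miR-126-5p had at most 143. Liver miR-122-5p, muscle miR-133a-3p and epithelial miR-205 had at most 3 counts in any library, and miR-122-3p, miR-1, miR-133a-5p and miR-124a had none. Exceptions among tissue restricted miRNAs were miR-192, of liver and gut, with 373 to 5876 counts, and neural miR-9 with 5 to 680 counts. Lower counts were seen for miR-215, with up to 23, and miR-375, with up to 12. Of the tested names, miR-9, miR-9-1 and miR-9-2 hold the same counts. The label of PBMC therefore held for the leukocyte markers, with red cell miRNAs beside them.

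miR-486 took most of the counts at both ages, but its share differed widely between pigs. At day 11 it was 91.6%, 94.5%, 91.5%, 69.1%, 84.6%, 91.2%, 90.7% and 95.5% in pigs 1 to 8. At day 20 it was 65.5%, 87.6%, 92.9%, 95.1%, 83.3%, 66.9%, 72.2% and 65.6% in the same order. The share was lower at day 20 in 6 of the 8 pigs and higher in pigs 3 and 4, and the ages overlapped. The mean difference of -9.97 percentage points (SD 18.7, n = 8 pairs) did not pass an exact two-sided sign-flip permutation test over the 8 pairs (p = 0.180). The smallest p this test can give is 0.00781. The difference was 1.40 points in pig 3 and 25.98 points in pig 4, and without pig 4 the mean difference was -15.1 points (exact permutation p = 0.0469). The counts of other miRNAs had a mean log2 ratio of 0.87 (exact permutation p = 0.180), with 5 pigs higher and 3 lower. A library of day 11 had a read of 178.6 miRNAs on average (SD 34.2, n = 8) and one of day 20 of 210.8 (SD 41.1, n = 8), which did not pass either (exact permutation p = 0.203).

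**Figure D1:**
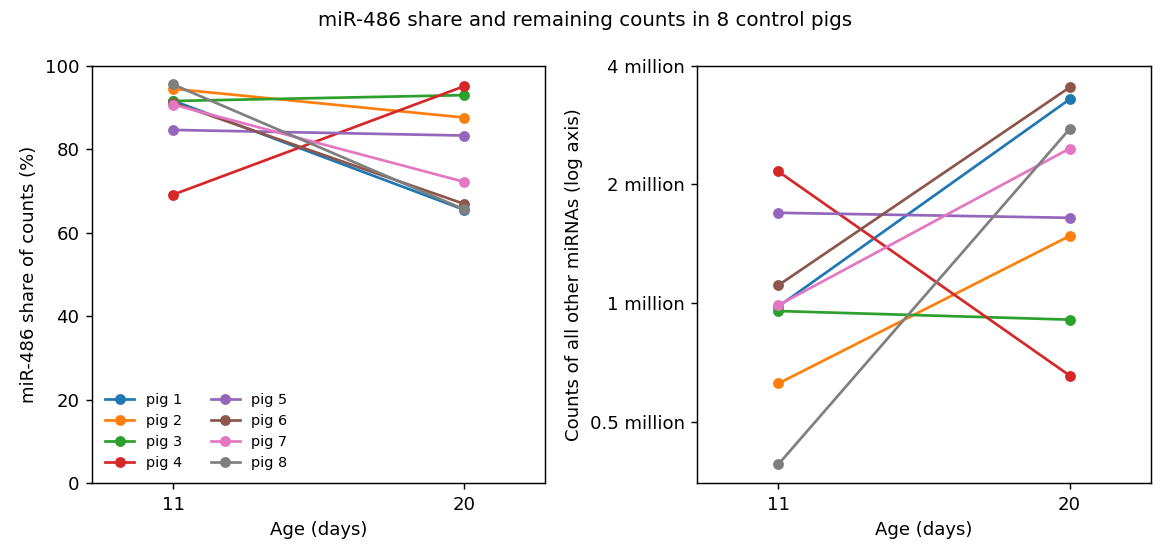
Share of miR-486 in the counts (left, %) and counts of all other miRNAs (right, log axis) in each of the 8 control pigs at day 11 and day 20 of age, 1 line per pig. The share was lower at day 20 in 6 pigs and higher in pigs 3 and 4, and pig 4 went from 69.1% to 95.1%.

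Of the 457 mature names in the table, 295 had a read in the 16 libraries, and the 209 that were seen in 17 or more of all 39 libraries and averaged above 2 reads were tested. Some of these are not separate measurements, since 8 of the 209 names share their counts with another name and 204 sets of counts are distinct. The edgeR quasi-likelihood test had pig as a block and the RNA quality index (RQI) as a further term. It called 1 miRNA higher at day 20 (0.478% of those tested) and 0 lower at an adjusted p-value under 0.10. At an unadjusted p under 0.05 there were 18 higher (8.61%) and 5 lower (2.39%). limma with pig as a fixed block also called 1, and limma with pig as a random effect called 7, 5 of them higher, while DESeq2 called 12, with 5 higher and 7 lower. DESeq2 gave no adjusted p-value for 29 of the 209. edgeR called 9, all higher, without RQI as a term and 11, all higher, in a fit of all 39 libraries. The log2 change was positive for 145 and negative for 64 of the 209, with a median of 0.32 and quartiles of -0.16 and 0.81. The number called also depends on single animals, since it was 11 without pig 5, 7 without pig 2, 5 without pig 3, 3 without pig 1 or pig 7, 2 without pig 8 and 1 without pig 4 or pig 6. The centre of the log2 changes depends on the scaling, since the median was 0.31 with TMM, 0.17 with library sizes that leave out miR-486, 0.10 with the size factors of DESeq2 and 1.00 with total counts. Changes are therefore also given relative to the median of all tested miRNAs. In 6 miRNAs (2.87%) the scaled count was higher at day 20 in all 8 pigs, and in 0 (0%) it was lower in all 8. The 6 were miR-19b, miR-21-5p, miR-148b-3p, miR-148b-5p, miR-144 and miR-4331-5p, of which all but miR-19b and miR-21-5p were named after their values were seen. In pig 4 the raw counts of all 6 were lower at day 20, while the total count was higher. As a share of total counts, none of the 6 was therefore higher in all 8 pigs.

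The miR-17-92 cluster is a set of miRNAs cut from 1 transcript that MYC activates, and it is known for its part in the expansion of B and T cell precursors. Its members fall into families by their seed, the bases that pair with a target. The scaled count of miR-19b had a lowest, median and highest value of 549, 1648 and 3373 at day 11, and of 3269.7, 4587 and 9724 at day 20. The groups nearly separated, with 6 of the 8 values of day 20 above every value of day 11, and pig 1 was lowest at both ages. The per-pig log2 ratios of miR-19b were 2.57, 1.61, 1.09, 2.11, 0.69, 1.57, 0.01 and 1.88 in pigs 1 to 8. Pig 7 was therefore flat, and pig 5 had the next smallest ratio. The adjusted p-value was 0.00266 from edgeR (unadjusted 1.27e-05). Relative to the median of all tested miRNAs the log2 change of miR-19b was 0.99, and it was between 0.80 and 1.00 under the other scalings, but under total counts it did not pass the test (adjusted p = 0.790 from edgeR, against 6.88e-05 to 0.0906 over the alternatives that kept the call). It also missed the threshold with the miR-486 share of each library as a further term (1.35, adjusted p = 0.140 from edgeR), a term chosen after seeing the data. In pig 4 the raw counts of miR-19b were 3259 at day 11 and 2759 at day 20. The counts without miR-486 were 2156517 and 655146 in the same order, and the total counts were 6980351 and 13342903. miR-19b of pig 4 was therefore higher at day 20 relative to the counts without miR-486, and lower relative to the total counts.

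miR-19a shares the seed of miR-19b and lies in the same cluster, with miR-20a-5p between them. Its scaled count was 75.4, 355 and 514 (lowest, median and highest) at day 11 and 361, 765 and 1933 at day 20. Here too 6 of the 8 day 20 values lay above all of day 11, and 7 of 8 pigs were higher, with pig 7 lower. The log2 change of 1.16 (SE 0.35) had an adjusted p of 0.105 from edgeR and did not pass, with 0.0262 to 0.790 over the alternatives. The mature sequences of both, from the RefSeq annotation of Sscrofa11.1, are shown with the seed (bases 2 to 8) in capitals because they carry the one call and its nearest relative.
miR-19b: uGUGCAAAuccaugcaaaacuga
miR-19a: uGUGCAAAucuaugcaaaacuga
miR-19b is encoded at 2 loci with the same mature sequence, on chromosome 11 from 60735289 to 60735311 on the plus strand and on chromosome X from 110113862 to 110113884 on the minus strand, and its counts cannot be assigned to either. miR-19a has 1 locus, on chromosome 11 from 60734987 to 60735009. Neither cluster has an annotated host gene.

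All 7 tested miRNAs of the chromosome 11 cluster, which extends from 60734665 to 60735426, had positive log2 changes, against 145 of 209 among all miRNAs. All 7 were also positive under each of the 4 other scalings. Of all 209, 190 were positive under total counts, 145 with TMM, 124 with library sizes that leave out miR-486 and 123 with DESeq2. The values were 0.92 (SE 0.43) for miR-17-5p, 1.62 (SE 1.59) for miR-17-3p and 2.64 (SE 1.57) for miR-18a. They were 0.66 (SE 0.46) for miR-20a-5p and 0.34 (SE 0.25) for miR-92a, the most abundant member and the one closest to the median of all miRNAs. Only miR-19b passed edgeR's test, while DESeq2 also called miR-19a and miR-18a higher and, in the wider list, miR-92b-3p lower. Counts of miR-17-3p and miR-18a were low, with mean scaled counts of 17.2 and 27.5. Abundance within the cluster was uneven, since miR-92a had a mean scaled count of 22871 and miR-19b of 3580.4, although both have a copy on chromosome X as well. With the related X cluster included, 9 of 11 tested members were higher and 2 lower, with 1 called and a median of 0.92. Under total counts all 11 were higher, against 190 of 209 among all miRNAs. The 2 lower ones in the main fit were miR-363, with -0.29, and miR-92b-3p, which lies elsewhere in the genome, with -0.31.
miR-17-5p: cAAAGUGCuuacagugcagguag
miR-20a-5p: uAAAGUGCuuauagugcaggua
miR-18a: uAAGGUGCaucuagugcagaua
miR-92a: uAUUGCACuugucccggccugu
These are shown to set the other seeds of the cluster beside that of miR-19. The 4 tested miRNAs with the seed of miR-17-5p were all higher (median 0.79), and of the 4 with the seed of miR-92a, 2 were higher and 2 lower (median 0.03).

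**Figure D2:**
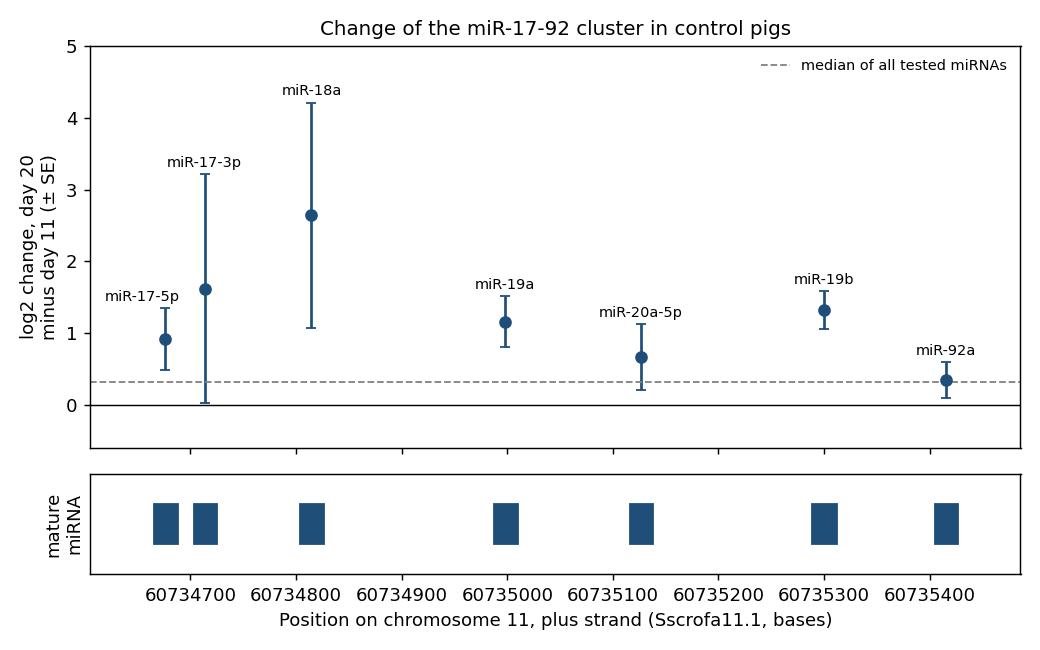
Fitted log2 change from day 11 to day 20 (points, with bars of 1 SE, n = 8 pairs) of the 7 tested miRNAs of the miR-17-92 cluster against their position on chromosome 11 of Sscrofa11.1, with the mature miRNAs drawn to scale below. The dashed line is the median of all 209 tested miRNAs at 0.32, and all 7 points lie above it.

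Among red cell miRNAs, miR-451 and miR-144 are made from 1 transcript during erythroid maturation, and miR-451 is cut by AGO2 without Dicer. The scaled count of miR-451 was 1415, 2476 and 6068 (lowest, median and highest) at day 11 and 2248, 5866 and 17445 at day 20. It was higher at day 20 in 7 of 8 pigs, with pig 2 highest and pig 8 lower than before, and 4 of the 8 values lay above all of day 11. The log2 change was 0.84 (SE 0.25, adjusted p = 0.105 from edgeR). miR-144, which lies beside it on chromosome 12, was higher in all 8 pigs, with a log2 change of 0.97 (SE 0.53, adjusted p = 0.508 from edgeR). In pig 4 the raw counts of miR-144 were 135 and 48, so that its share of total counts was lower at day 20. miR-486 had a log2 change of -0.91 (SE 0.80, adjusted p = 0.737 from edgeR), so that 2 of the 3 erythroid miRNAs were higher and 1 lower, with a median of 0.84 and 0 called. The summed scaled count of miR-451 and miR-144 was between 1473 and 6232 at day 11 and between 2312 and 17863 at day 20, higher in 7 of 8 pigs. With miR-486 included, the sum of the 3 erythroid miRNAs went the other way, higher at day 20 in 2 pigs and lower in 6. The part of red cell RNA in the other results was not tested.
miR-451: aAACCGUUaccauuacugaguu
miR-144: uACAGUAUagaugauguac
miR-486: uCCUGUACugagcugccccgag
These sequences are shown because the 3 miRNAs are the erythroid list and share no seed. miR-451 lies on chromosome 12 from 45088838 to 45088859 and miR-144 from 45088968 to 45088986, both on the minus strand and opposite to ERAL1, while miR-486 lies on chromosome 17 from 10758868 to 10758889 within ANK1 on the same strand.

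The let-7 family marks differentiated cells and represses growth genes such as MYC, RAS and HMGA2. let-7d-5p had scaled counts of 678, 1261 and 2407 (lowest, median and highest) at day 11 and of 1712, 2393 and 3398 at day 20. It was higher in 7 of 8 pigs and lower in pig 5, and 4 values of day 20 lay above all of day 11. Its log2 change was 0.94 (SE 0.28, adjusted p = 0.105 from edgeR). let-7g, with 6097, 9536 and 19368 at day 11 and 11169, 14952 and 21133 at day 20, had a log2 change of 0.66 (SE 0.25, adjusted p = 0.212 from edgeR). The most abundant members had log2 changes of 0.37 (SE 0.31) for let-7f-5p, 0.33 (SE 0.26) for let-7i-5p and 0.04 (SE 0.28) for let-7a. Of the 10 tested members, 8 were higher and 2 lower with 0 called and a median of 0.35, and under DESeq2's size factors 6 were higher and 4 lower. The 10 include let-7d-3p, the other arm of the hairpin of let-7d-5p, with 0.00 (SE 0.39). Of the 8 members with the let-7 seed, 6 were higher and 2 lower, with a median of 0.35.
let-7d-5p: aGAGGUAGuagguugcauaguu
let-7g: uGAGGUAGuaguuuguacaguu
let-7f-5p: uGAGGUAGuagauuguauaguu
let-7a: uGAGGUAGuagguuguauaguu
These members share the seed in capitals and are shown for the range of their values. A difference between members was not tested. let-7a, let-7f-5p and let-7d-5p also lie together on chromosome 3 from 43465677 to 43468532, although let-7a and let-7f-5p have a further locus each. let-7g lies on chromosome 13 from 34406195 to 34406216, within WDR82. Members that differ by few bases may share reads, so that the split between them is uncertain.

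Next by p-value were miRNAs of different families. miR-21-5p, which is induced when T cells and macrophages are activated, had scaled counts of 6217, 10791 and 14461.5 (lowest, median and highest) at day 11 and 11657, 17823 and 35218 at day 20. All 8 pigs were higher at day 20, pig 8 by the most, and 5 values lay above all of day 11. In pig 4 the raw counts were 25791 and 5780, so that the share of total counts was lower at day 20. The log2 change was 0.83 (SE 0.26, adjusted p = 0.105 from edgeR). miR-101, a repressor of the histone methyltransferase EZH2, had 387, 1577 and 2661 at day 11 and 1538, 3140.3 and 4004 at day 20. It was higher in 6 of 8 pigs, with pig 1 far below the rest at day 11, and its log2 change was 0.90 (SE 0.29, adjusted p = 0.105 from edgeR). For miR-30e-5p the scaled counts were 848, 2091 and 4619.9 at day 11 and 2517, 3842 and 6275 at day 20, higher in 7 of 8 pigs. Its log2 change was 0.75 (SE 0.24, adjusted p = 0.105 from edgeR), but the other arm of its hairpin, miR-30e-3p, had 0.04 (SE 0.24). miR-142-5p, found in nearly all blood cells, had 0.69 (SE 0.26, adjusted p = 0.212 from edgeR), with 7 of 8 pigs higher.
miR-21-5p: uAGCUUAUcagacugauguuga
miR-101: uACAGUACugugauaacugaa
miR-30e-5p: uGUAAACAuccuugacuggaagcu
miR-142-5p: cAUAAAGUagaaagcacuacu
They are shown for the miRNAs of this paragraph and have 4 different seeds. miR-21-5p lies on chromosome 12 from 36065284 to 36065305, miR-142-5p on chromosome 12 from 34609426 to 34609446 and miR-30e-5p on chromosome 6 from 170429889 to 170429912 within NFYC. miR-101 has a locus on chromosome 1 within RCL1 and another on chromosome 6 within JAK1.

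**Figure D3:**
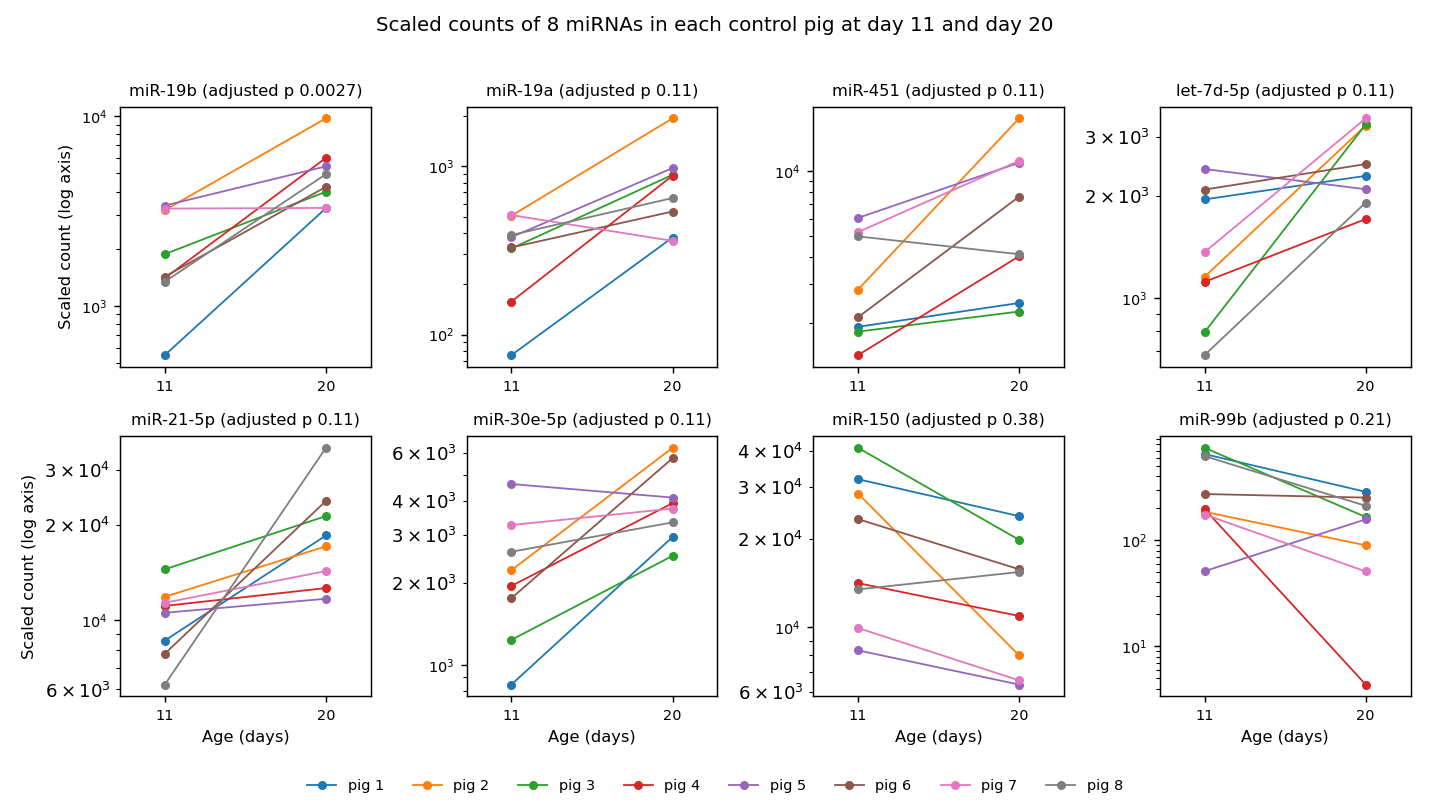
Scaled counts (log axes) of 8 miRNAs at day 11 and day 20 of age, with 1 line for each of the 8 control pigs and the adjusted p-value of edgeR's test above each panel. miR-19b was higher at day 20 in all 8 pigs, but lower in pig 4 as a share of total counts. miR-150 (log2 change 0.14 under total counts) and miR-99b were lower in 7 of 8.

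None of the negative changes passed edgeR's test, while DESeq2 called 7 miRNAs lower and limma with pig as a random effect called 2. miR-150 had scaled counts of 8331, 18757 and 40957 (lowest, median and highest) at day 11 and 6363, 13169 and 23926.5 at day 20. It was lower at day 20 in 7 of 8 pigs, with pig 8 the exception, but the ages overlapped widely because pigs 5 and 7 were low and pigs 1 and 3 high at both. The log2 change was -0.50 (SE 0.23, adjusted p = 0.380 from edgeR), which was -0.82 relative to the median of all miRNAs, and the alternatives gave adjusted p-values from 0.0476 (DESeq2) to 0.937. Under total counts its value was 0.14, or -0.86 relative to the median. miR-342, the other lymphocyte marker, had -0.43 (SE 0.26), so that both miRNAs of this list were lower with a median of -0.46, which was 0.14 under total counts. miR-99b, of a family that targets MTOR, had 51.1, 235 and 744 at day 11 and 4.36, 162 and 286 at day 20, lower in 7 of 8 pigs, with pig 4 at 2 counts and pig 5 higher. Its log2 change was -1.54 (SE 0.56, adjusted p = 0.212 from edgeR, with 0.0355 to 0.908 over the alternatives), and it passed with DESeq2 and, in edgeR, without pig 5. miR-10b, encoded among the HOXD genes and named after its values were seen, had 138, 239 and 529 at day 11 and 30.04, 81.3 and 408 at day 20, with 6 of 8 values below all of day 11. Its log2 change was -1.47 (SE 0.58, adjusted p = 0.245 from edgeR, with 0.0352 to 0.885 over the alternatives), and it passed with DESeq2 and with pig as a random effect in limma. The other negative changes at an unadjusted p under 0.05, also named after their values were seen, were -0.90 (SE 0.36) for miR-9841-3p and -0.57 (SE 0.27) for miR-296-3p (0.13 under total counts), and DESeq2 called both. miR-9841-3p also passed with pig as a random effect in limma and, in edgeR, without pig 3.
miR-150: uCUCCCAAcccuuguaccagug
miR-99b: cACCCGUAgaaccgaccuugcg
miR-10b: uACCCUGUagaaccgaauuugu
They are shown as the miRNAs with negative values that the paragraph rests on. miR-150 lies on chromosome 6 from 54580957 to 54580978, miR-99b on chromosome 6 from 58332253 to 58332274 and miR-10b on chromosome 15 from 81951653 to 81951674. The cluster neighbours of miR-99b had log2 changes of 0.63 (SE 0.70) for let-7e and -0.06 (SE 0.55) for miR-125a, and a difference from miR-99b was not tested.

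miR-29b, which represses collagens, DNA methyltransferases and interferon gamma and was named after its values were seen, had a read at day 20 and not at day 11 in these pigs. It had 0 counts in all 8 libraries of day 11, and 20, 4, 0, 0, 8, 11, 7 and 5 counts at day 20 in pigs 1 to 8. The 2 pigs without a count at day 20, pigs 3 and 4, were those with the fewest counts without miR-486 at that age, at 907823 and 655146. Depth differed less in pig 5, with 0 counts of miR-29b beside 1694112 counts without miR-486 at day 11 and 8 beside 1645235 at day 20. Among libraries outside this comparison, it had up to 41 counts in control pigs at day 56 and up to 5 in topsoil pigs at day 11. No fold is given, and the part of depth was not tested. edgeR did not call it, while limma with pig as a random effect did, as did edgeR without the block for pig or with all 39 libraries.

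The other groups of miRNAs are described by their counts and medians beside those of all 209, of which 145 (69.4%) were higher, with a median of 0.32, and apart from miR-19b no member of any of them was called by edgeR. Under total counts the median of all 209 was 1.00 and the median of each list was above 0. Of the leukocyte and myeloid miRNAs, 4 of 4 tested were higher with a median of 0.91, where miR-142-3p had 1.13 (SE 0.57) and miR-223, of neutrophils and monocytes, had 0.34 (SE 0.47). The list also holds miR-424-3p, with 3.55 at a low mean scaled count of 8.32, which DESeq2 called. Of the inflammation miRNAs, 5 of 7 were higher with a median of 0.83, and miR-146a-5p, a brake on Toll-like receptor signalling, had -0.36 (SE 0.25). Of the miR-15 and miR-16 family, known for repressing BCL2 and cyclins, 3 of 3 were higher with a median of 0.56, and miR-16 had 0.56 (SE 0.23). Of the miR-181 family, which sets the sensitivity of T cell receptors, 3 of 4 were higher with a median of 0.07, which was -0.15 under DESeq2 and -0.09 with library sizes that leave out miR-486. Its main member miR-181a had scaled counts of up to 571448 at day 11 and of up to 544242 at day 20, with 4 pigs higher and 4 lower. Of the miR-26 and miR-29 families, 4 of 6 were higher with a median of 0.55, which does not depend on the fitted value of miR-29b as long as it is above that of miR-26b-5p. Their main member miR-26a had -0.08 (SE 0.24), while miR-26b-5p had 0.69 (SE 0.26).

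Of the miR-99, miR-100, miR-125 and miR-10 group, 3 of 8 were higher and 5 lower with a median of -0.17, and its most abundant member miR-10a-5p had -0.27 (SE 0.29). Of the platelet and vascular miRNAs, 4 of 5 were higher with a median of 0.38, but the counts of miR-199b-3p repeat those of miR-199a-3p, and the leading member miR-143-3p had -0.66 (SE 0.37), lower in 7 of 8 pigs. The summed scaled count of this list was between 318 and 1603 at day 11 and between 183 and 934 at day 20. Of the miR-30 family, 6 of 9 were higher with a median of 0.04 (-0.15 under DESeq2, -0.11 with library sizes that leave out miR-486), and miR-30d had 0.17 (SE 0.22). Of the miR-23, miR-27 and miR-24 clusters, 5 of 6 were higher with a median of 0.19 (-0.03 under DESeq2), and miR-27b-3p had 0.08 (SE 0.22). Of miR-221 and miR-222, regulators of KIT and CDKN1B, 3 of 3 tested arms were higher with a median of 0.19 (-0.03 under DESeq2), and miR-222 had 0.19 (SE 0.29). Of the miR-183, miR-96 and miR-182 cluster 2 were tested, 1 in each direction with a median of -0.10, and miR-182, which IL-2 induces in helper T cells, had -0.51 (SE 0.29) with 6 of 8 pigs lower, was called lower by DESeq2 and had 0.08 under total counts. Of the miRNAs often held to be steady in blood, 7 of 8 were higher with a median of 0.28, and miR-423-5p had 0.23 (SE 0.25) and miR-191, lower in 6 of 8 pigs, 0.00 (SE 0.30). Under DESeq2, 5 of this list were higher and 3 lower, with a median of 0.06. Of the 25 tissue restricted miRNAs 4 were tested, all 4 were higher with a median of 0.51, and miR-192 had 0.10 (SE 0.30). Under DESeq2, 2 of the 4 were higher and 2 lower, with a median of 0.22. Abundant miR-148a-3p is in none of these lists. It is known to restrain dendritic cells, and it had 0.48 (SE 0.24).

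The log2 changes were also set beside base composition. Sequences of 179 of the 209 tested miRNAs matched the annotation, and over the 95 of them with a mean scaled count of at least 100 the Spearman correlation of GC content and log2 change was -0.43. The median log2 change was 0.51 in the 32 miRNAs of lowest GC content (27.3% to 41.7%), 0.17 in the next 31 and 0.11 in the 32 of highest GC content (50.0% to 72.7%). Over the same 95 miRNAs the correlation with the log2 ratio was negative in each of the 8 pigs, from -0.05 in pig 5 to -0.46 in pig 8. In pigs 3 and 4, where the share of miR-486 was higher at day 20, it was -0.09 and -0.29. The part of that share was not tested. Over all 179 miRNAs the correlation was -0.31, negative in 7 of 8 pigs. These are descriptions across miRNAs measured in the same 16 libraries, and miRNAs are not independent replicates. miR-19b and miR-19a are at 39.1% and 34.8% GC, and miR-99b is at 63.6%, while miR-10b, with a log2 change of -1.47, is at 40.9%. The part of base composition in their values was not tested.

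**Figure D4:**
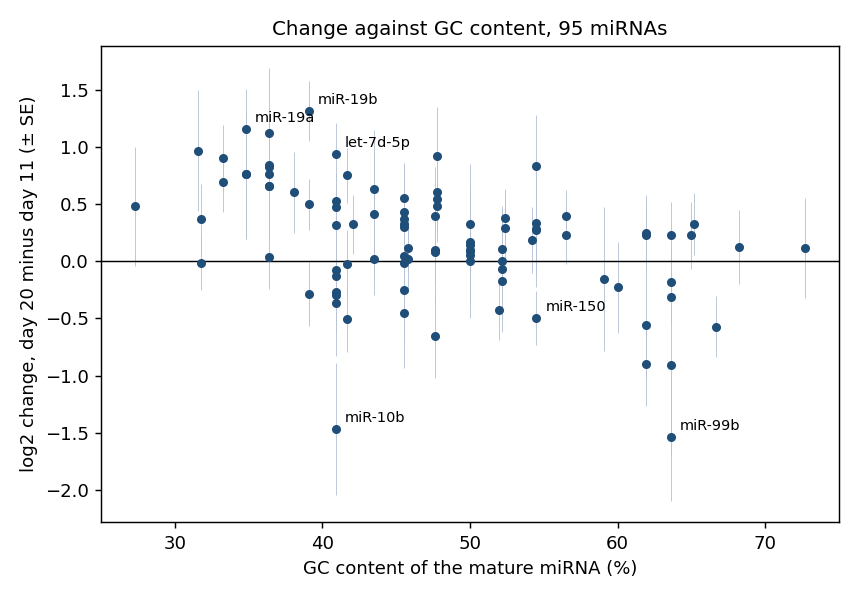
Fitted log2 change from day 11 to day 20 (points, with bars of 1 SE, n = 8 pairs) against the GC content (%) of the mature sequence for the 95 miRNAs with a mean scaled count of at least 100. miR-19b and miR-19a lie at the upper left, at 39.1% and 34.8% GC, and miR-99b at the lower right, at 63.6%, while miR-10b, at 40.9%, has a log2 change of -1.47.

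The 5 topsoil pigs at the same ages were used to ask whether the change with age differed by treatment. The day by treatment term of edgeR called 0 of 209 miRNAs, with a smallest adjusted p of 0.525, and 13 (6.22%) had an unadjusted p under 0.05. No other tool was run for this term, and with TMM edgeR called 0 as well, with 12 at an unadjusted p under 0.05. For miR-19b the log2 change was 1.32 (SE 0.26) in control pigs alone, and in the joint fit it was -0.04 (SE 0.42) in topsoil pigs with an extra change of 1.54 (SE 0.54) in control pigs (unadjusted p = 0.00876, adjusted p = 0.525 from edgeR). The extra change was 1.53 (SE 0.51) for miR-451 and 1.49 (SE 0.72) for miR-19a, also with adjusted p-values of 0.525 and 0.621 from edgeR. No difference between treatments was thus established for any of them.

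The later course in control pigs is given side by side, because the change from day 20 to day 56 uses the same day 20 libraries. The share of miR-486 was between 18.5% and 75.3% in control pigs at day 56, the library of pig 7 at that age had 1634831 counts, and the part of red cell RNA and depth in the later changes was not tested. From day 20 to day 56, edgeR called 5 miRNAs higher (2.39%) and 8 lower (3.83%). miR-19b fell by 0.95 on the log2 scale (SE 0.29, adjusted p = 0.0893 from edgeR), after its rise of 1.32. miR-19a fell by 1.68 (SE 0.37, adjusted p = 0.00922 from edgeR) after 1.16 from day 11 to day 20, and miR-17-5p fell by 1.20 (SE 0.38, adjusted p = 0.0893 from edgeR) after 0.92. Of the same list, miR-92b-3p rose by 1.44 (SE 0.25, adjusted p = 0.00146 from edgeR) after -0.31. miR-451 fell by 2.88 (SE 0.50, adjusted p = 0.00146 from edgeR) after 0.84. miR-150 rose by 1.41 (SE 0.30, adjusted p = 0.00618 from edgeR) after -0.50, and miR-148a-3p fell by 1.50 (SE 0.28, adjusted p = 0.00216 from edgeR) after 0.48. miR-142-5p rose by 0.87 (SE 0.27, adjusted p = 0.0893 from edgeR) after 0.69, and miR-181a rose by 0.93 (SE 0.28, adjusted p = 0.0812 from edgeR) after 0.02. let-7d-5p had -0.01 (SE 0.23) and miR-21-5p 0.51 (SE 0.24) in this later interval, and neither passed the test.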

How the data were processed

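The authors checked reads with FastQC 0.11.3, trimmed them with Trim Galore 0.4.5 and used miRDeep2 on Sscrofa11.1, its version not given in the sources used here, and they deposited raw counts of reads per mature miRNA and precursor. The mRNA table was not used here. One entry per mature name was kept, the one with the largest total. Library sizes were scaled by the 75% quantile. Counts of the 16 libraries were tested in R 4.3.3 with edgeR 4.0.16 (quasi-likelihood F test, Benjamini-Hochberg adjustment at 0.10) with pig, RQI and day as terms. The SE of a log2 change is its size divided by the square root of its F statistic. It is not the spread over the 8 pairs. Alternatives used TMM, DESeq2 1.42.0, limma 3.58.1, other filters and covariates, and each pig left out. Pairs were formed by the pig number in the column names. Deviations from the age means had a mean correlation of 0.0351 within a pig and 0.000684 between pigs, and 2 of the 8 pairs were above 0.1. The values within a pig were between -0.19 and 0.40. These correlations therefore do not establish that both libraries of a pair come from the same animal. Library measures were tested in Python 3.11.15.

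Named miRNAs are the 10 with the smallest p-values, the 10 most abundant, and the most abundant and any called member of each of 17 lists. Others were named after their values were seen. Members and lists were chosen with earlier results of these data known. Positions and sequences are from RefSeq, Sscrofa11.1 (369 of 457 names matched).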

Additional observations from a re-analysis of the deposited data

Results flagged for a closer look

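In 99 groups of 8 pigs (4 library measures and 29 named miRNAs, at each age and as the change between them), 1 pig lay far from the other 7 in 12. For independent groups of normally distributed values, chance alone does this in about 1 of 20. These groups share pigs, libraries and scaling, so that 12 of 99 cannot be compared with that rate. Levels were searched on the log2 scale, apart from shares and numbers of miRNAs.

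Pig 4 accounts for 6 of these. Its share of miR-486 was 69.1% at day 11, where the others had 84.6% to 95.5%, and its total count had a log2 ratio of day 20 over day 11 of 0.93, where the others had -0.30 to 0.19. Its log2 ratios were 1.80 for miR-191 (others -0.65 to 0.19), 1.39 for let-7i-5p (others -0.20 to 0.42) and 2.30 for miR-192 (others -0.81 to 0.31). Its scaled count of miR-99b at day 20 was 4.36, from 2 counts, where the others had 50.8 to 286.

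Pig 5 stood apart in miR-27b-3p at both ages, with scaled counts of 38842 at day 11 (others 4118 to 6874) and 26496 at day 20 (others 5007 to 6831). Pig 5 also had a log2 ratio of -0.79 for let-7g, where the others had 0.26 to 1.18.

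Pig 1 had the lowest levels at day 11 of miR-101, at 387 (others 1067 to 2661), and of miR-142-5p, at 1475 (others 5144 to 14021). Pig 8 had a log2 ratio of -1.02 for miR-423-5p, where the others had 0.19 to 1.13. No named miRNA moved one way in all control pigs and the other way in all topsoil pigs. Reasons for these values were not tested.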

How the results depend on the processing

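miR-19b kept its direction in all 23 alternatives and its call in 21 of them, with log2 changes between 1.09 and 1.58 and adjusted p-values between 6.88e-05 and 0.0906 in those 21. It missed the threshold under total counts (1.80) and with the miR-486 share as a covariate (1.35), an alternative chosen after seeing the data. The number of miRNAs called was 0 under total counts, 12 with DESeq2, 7 in limma with pig as a random effect, 2 with every entry of the table (both entries of miR-19b), 9 without RQI, 4 with litter size by day, 4 without the replicate block for pig, 11 with all 39 libraries and 0 with the miR-486 share as a covariate. With single pigs left out it was between 1 and 11: 3 without pig 1, 7 without pig 2, 5 without pig 3, 11 without pig 5, 3 without pig 7 and 2 without pig 8. The mean difference in the share of miR-486 was between -15.1 and -7.11 points with single pigs left out, and it passed an exact permutation test at 0.05 only without pig 4. Of the named miRNAs that did not pass, miR-21-5p was called in 8 alternatives, miR-19a in 7, let-7d-5p and miR-451 in 6 each, miR-101 in 5, miR-30e-5p, miR-22-3p, miR-9841-3p and miR-29b in 3 each, miR-10b, miR-142-5p, miR-148b-5p, miR-26b-5p and miR-99b in 2 each, and let-7g, miR-103, miR-150, miR-16, miR-182, miR-186-5p and miR-296-3p in 1 each, 61 calls in all. This tally leaves out miR-18a, miR-92b-3p and miR-424-3p, which DESeq2 called. Signs changed in 63 of 919 values of named miRNAs, none of them a call. Under total counts the log2 change was 0.08 for miR-182, 0.14 for miR-150, 0.13 for miR-296-3p, 0.63 for miR-26a and 0.30 for miR-10a-5p, and without a change of sign it was 0.67 for let-7a, 0.69 for miR-181a and 0.54 for miR-191. With library sizes that leave out miR-486 it was -0.14 for miR-181a, -0.13 for let-7a, -0.14 for miR-191, -0.08 for miR-27b-3p and -0.04 for miR-192. DESeq2 gave -0.20 for miR-181a, -0.18 for let-7a, -0.20 for miR-191, -0.14 for miR-27b-3p, -0.05 for miR-30d, -0.03 for miR-222 and -0.09 for miR-192. limma with pig as a random effect gave -0.08 for miR-181a, -0.01 for let-7a, -0.00094 for miR-191 and 0.03 for miR-26a. Without a filter beyond 1 read the values were -0.15 for miR-181a, -0.13 for let-7a, -0.15 for miR-191, -0.09 for miR-27b-3p and -0.04 for miR-192. With a read in 8 of 16 libraries required they were -0.10, -0.08, -0.12, -0.04 and -0.01 in the same order, and with every entry -0.15, -0.13, -0.17, -0.09 and -0.06, with -0.01 for miR-30d. Without RQI they were -0.04 for let-7a, -0.05 for miR-191 and 0.13 for miR-26a, and with litter size by day -0.04 for let-7a and -0.03 for miR-191. Without the replicate block for pig they were -0.09 for miR-181a, -0.05 for let-7a and -0.08 for miR-27b-3p. All 39 libraries gave -0.04 for let-7a and 0.07 for miR-26a, and the 24 control libraries gave -0.03 for miR-181a and 0.0011 for miR-26a. The miR-486 share as a covariate gave 0.22 for miR-486, -0.02 for miR-181a and 0.03 for miR-10a-5p. With single pigs left out, log2 changes were between -0.06 and 0.09 for miR-181a, -0.12 and 0.16 for let-7a, -0.30 and 0.21 for miR-191, -0.02 and 0.18 for miR-27b-3p, -0.20 and 0.10 for miR-26a, and -0.25 and 0.26 for miR-192. Without a change of sign they were between -1.52 and -0.36 for miR-486, -0.55 and -0.02 for miR-10a-5p, and -0.74 and -0.21 for miR-182. The cause was not tested for any of these.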
